A study of Arabidopsis thaliana with 18 samples.

Results

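Dry Arabidopsis thaliana seeds hold RNA laid down while the embryo matured, and part of it sits on ribosomes although the seed is dry. The comparison described here sets polysomal RNA against total RNA of dry seeds. It covers 6 of the 18 arrays of the study, 3 of polysomal RNA and 3 of total RNA, chosen by their labelled seed stage and RNA fraction, and all 27827 rows of the array table. Each row carries 1 gene locus.

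The first group is polysomal RNA of dry, freshly harvested seeds and the other is total RNA of such seeds. All seeds were of the accession Columbia-0, with no mutant or treatment in either group, and each replicate pooled 8 plants grown in a randomised block design. The study also held 3 arrays of dry seed monosomal RNA and 9 arrays of seedlings 72 h after imbibition, in the same 3 RNA fractions. Of these, the 3 polysomal and 3 total RNA arrays of seedlings serve as a second stage below, and the monosomal levels are given for a few genes only. The labels name biological replicates, so the spread between arrays includes growth, extraction and hybridisation.

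A polysome is an mRNA with several ribosomes on it, and a monosome carries a single ribosome. RNAs that are not translated (small nuclear and nucleolar RNAs, the RNA of the signal recognition particle) are part of total RNA. Levels were log2 values from robust multi-array averaging (RMA), which scales the arrays to each other. A difference is therefore relative to the other RNAs of its fraction, and how much RNA each fraction held cannot be read from them. In whole seeds, fewer cells of a type and less RNA per cell cannot be told apart.

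Seed marker genes were high in both fractions. The median level of 9 seed storage protein genes was 10.86 to 10.92 on the polysomal arrays and 11.17 to 11.37 on the total RNA arrays. The corresponding ranges were 10.98 to 11.13 and 11.21 to 11.34 for 7 oil body protein genes, and 10.23 to 10.45 and 10.49 to 10.69 for 32 late embryogenesis abundant (LEA) protein genes. The median of 42 nuclear photosynthesis genes was 2.82 to 3.0 on the polysomal arrays and 2.90 to 3.76 on the total RNA arrays of dry seeds, near the arrays' medians of 3.05 to 3.17. In seedlings the same list reached 9.65 to 9.97 in polysomal and 9.48 to 9.64 in total RNA. Most of 8 seed coat and endosperm markers were low, with list medians of 1.78 to 1.88 in polysomal and 1.85 to 2.12 in total RNA. Among them EPR1, an extensin-like gene of the endosperm, averaged 10.41 in polysomal and 11.05 in total RNA.

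The polysomal arrays correlated with each other at r = 0.986 to 0.990 over all rows and the total RNA arrays at 0.970 to 0.976. Between the fractions r was 0.961 to 0.976. These are descriptions over genes, which are not independent of each other.

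Relative to total RNA, dry seed polysomal RNA held more of the messages of some regulatory genes, in families that were put together after a first look at these results. They were 9 of 19 SNF2-type chromatin ATPases, 4 of 12 histone acetyltransferases, 3 of 10 JmjC demethylases, 3 of 5 largest RNA polymerase subunits and the kinases TOR, ATM and ATR. Of the 250 rows that were lower, 212 are typed as protein-coding, as are 701 of the 722 higher rows and 26486 of all 27827 rows. The largest falls were in the noncoding locus AT1G15405 and in AT2G31141, AT3G63052 and AT3G55485, and the 7SL RNA gene AT7SL-1, 4 of 13 small nuclear RNAs and the 2S albumin gene SESA2 were lower too. The best known messages of the dry seed, for cruciferins, oleosins, LEA proteins and heat shock proteins, passed the test in neither direction, and no ribosomal protein gene did. With limma and Benjamini-Hochberg adjustment over all rows, 722 rows (2.59%) were higher and 250 rows (0.898%) were lower in polysomal than in total RNA at an adjusted p under 0.05, together 3.49% of rows. The smallest difference that passed was 0.67 in size, so a gene that was not called may still differ by less than that or by more with a wide spread.

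Most differences were small. In 97.6% of rows the difference was under 1 on the log2 scale, that is under 2-fold, and the median over all rows was -0.08, with quartiles of -0.34 and 0.24. Of the rows that passed, 340 were at least 2-fold higher and 98 at least 2-fold lower. All 722 higher and all 250 lower rows had 3 polysomal values apart from the 3 total RNA values. That was also so for 15.5% of all rows upward and 16.6% downward. The calls lie close to the threshold: at an adjusted p under 0.01, 1 row was higher and 9 were lower.

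The count rests on all 3 polysomal arrays and on the scaling. Without polysomal replicate 1, 2 or 3, between 0 and 2 rows were higher and between 3 and 10 lower. Without total RNA replicate 1, 137 rows were higher and 69 lower, without replicate 2 the counts were 180 and 71, and without replicate 3 they were 666 and 424. Centring the arrays on their 75th percentile moved the median of all rows to -0.30 and gave 379 higher and 1488 lower rows, so that the share of higher among called rows was 20.3% there and 74.3% as deposited. Directions below are on the deposited scale, against its median of -0.08.

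The difference also went with the level of the gene. The first quartile of an array was 1.84 to 1.94 in polysomal and 2.05 to 2.24 in total RNA, and the third quartile was 5.53 to 5.6 and 5.28 to 5.44. Accordingly, the median difference was 0.17 among the 13913 rows above the median level and -0.26 among the 13914 rows below it. Of the higher calls, 700 lay above the median level and 22 below. Of the lower calls, 90 lay above and 160 below, and 178 of the 250 had a polysomal mean under the arrays' median. Whether background signal in low rows plays a part in these calls was not tested.

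**Figure D1:**
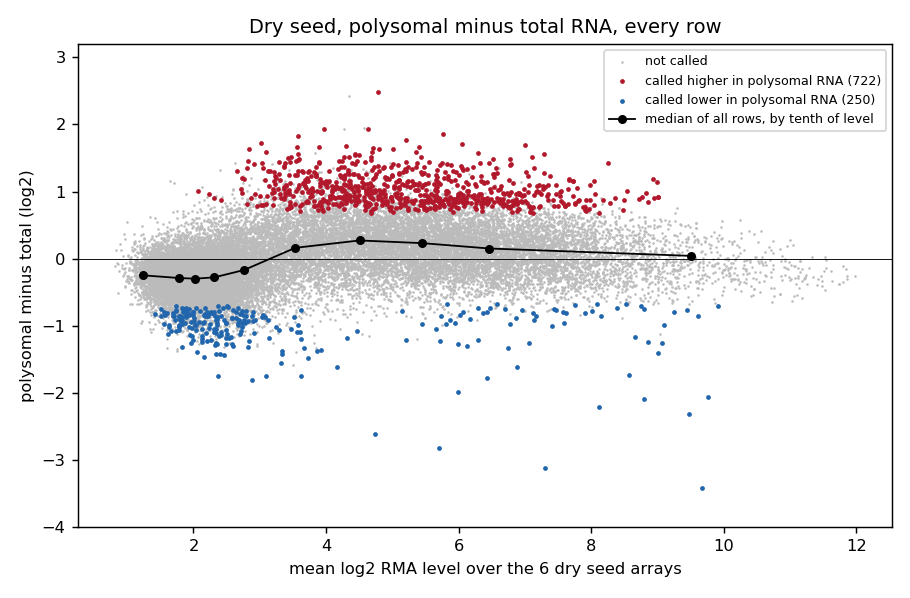
Each point is a row, with its mean log2 RMA level over the 6 dry seed arrays on the horizontal axis and the polysomal minus total difference on the vertical axis. Red points were called higher and blue points lower, and black points join the medians of 10 equal bins of level. The median is -0.25 in the lowest bin, -0.30 in bin 3, 0.27 in bin 7 and 0.04 in the highest bin. Of the 250 lower calls 160 lie below and 90 above the median level, down to -3.42.

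Of the protein-coding genes with a symbol or product name, the largest rise was in SAP130a, which encodes a subunit of the SF3b complex of the spliceosome. Its polysomal levels were 7.49, 8.08 and 7.95, and its total RNA levels 5.58, 6.64 and 6.24. The groups were apart, and the difference was 1.69 with a standard error (SE) of 0.28 (limma, adjusted p = 0.0317), or 3.23-fold.

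NERD, needed for a branch of RNA-directed DNA methylation, was at 7.67, 6.34 and 7.24 in polysomal and 5.63, 5.03 and 5.87 in total RNA. NET1D, a member of the plant actin-binding NET family, was at 4.46, 3.91 and 4.71 in polysomal and 2.86, 2.47 and 3.05 in total RNA. Their differences were 1.57 (SE 0.35) and 1.57 (SE 0.25). For both genes the lowest polysomal value belonged to replicate 2 and still lay above every total RNA value.

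The next 5 were CHR11, HEB1, PHIP1, SDG2 and GRL. CHR11 is an ISWI-type nucleosome remodeller, and its levels were 8.14, 8.01 and 8.06 in polysomal and 6.40, 6.15 and 6.96 in total RNA. SDG2, which places methyl groups on lysine 4 of histone H3, was at 7.44, 7.10 and 7.22 in polysomal and 5.98, 5.63 and 5.71 in total RNA. GRL encodes NAP1, part of the WAVE complex that drives actin branching, and was at 5.6, 5.31 and 5.34 in polysomal and 3.86, 3.87 and 4.11 in total RNA. HEB1, a gene for tolerance of excess boron, rose by 1.55 (SE 0.34), and its total RNA values were widely spread, from 2.98 to 4.51. PHIP1, which encodes a partner of the cell plate protein phragmoplastin, rose by 1.49 (SE 0.23). Adjusted p-values of these 8 genes lay between 0.0178 for GRL and 0.0480 for NERD.

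Loci without a symbol reached further. They fall outside the rule by which genes were chosen and were picked after their values were seen. AT5G17900 had the largest called rise of all rows, at 5.94, 6.24 and 5.89 in polysomal and 3.7, 2.37 and 4.57 in total RNA, a difference of 2.48 (adjusted p = 0.0367). AT3G04750 was the 1 higher row under 0.01, at 5.61, 5.79 and 5.39 in polysomal and 3.65, 3.61 and 3.74 in total RNA, a difference of 1.93 (adjusted p = 0.00725). The tables used here give neither gene a role.

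Genes of chromatin and transcription were grouped in families written down after a first look at these results, so their counts describe the called genes and are not independent support. SNF2-type ATPases use ATP to move, evict or exchange nucleosomes. Of 19 measured, 9 were higher (47.4%, against 2.59% of all rows), none was lower, and the median difference was 0.90. Since 16 of the 19 lay above the median level, the matching figure is that of well-expressed rows: their median was 0.97, against 0.17 for all rows above the median level. The median level of the family was 6.0 to 6.35 on the polysomal arrays and 4.90 to 5.42 on the total RNA arrays, with no overlap.

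The family covers several subtypes. SYD and BRM, the SWI/SNF-type ATPases that keep developmental genes accessible, averaged 7.17 ± 0.21 and 6.79 in polysomal, against 5.75 ± 0.16 and 5.45 in total RNA (SD for SYD, n = 3 each), differences of 1.42 and 1.34. SYD was at 7.30, 6.92 and 7.29 in polysomal and 5.87, 5.56 and 5.82 in total RNA. CHR5, a CHD-type remodeller active in seed gene control, was at 6.30, 5.59 and 6.35 in polysomal and 4.76, 4.57 and 4.63 in total RNA, and rose by 1.43 (SE 0.23). CHR4, CHR23, MOM, ATRX and RAD5 made up the called members. PKL, the remodeller that turns off embryonic genes after germination, had a difference of 0.90 that missed the threshold (adjusted p = 0.0961), and INO80 and PIE1 had 0.79 and 0.87 (adjusted p = 0.053 and 0.0899). CHR1, known as DDM1 and needed for DNA methylation of transposons, stood on the other side at -0.74 (adjusted p = 0.077), with a polysomal mean of 2.08 and a total RNA mean of 2.81.

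Enzymes that add or remove histone marks were called in part. Of 12 histone acetyltransferase genes, 4 were higher (33.3%: HAF01, HAC1, HAC5 and HAC12) and none lower, with a median of 0.55. Over all rows 2.59% were higher, and above the median level, where 10 of the 12 lay, 5.03%. HAF01 was at 7.46, 7.48 and 7.46 in polysomal and 6.07, 6.03 and 6.13 in total RNA, a difference of 1.39 (SE 0.15, adjusted p = 0.0141). Of 10 JmjC-type histone demethylases, 3 were higher (30%): IBM1 by 1.28, REF6 by 1.12 and PKDM7D by 1.06. REF6, which removes methyl groups from lysine 27 of histone H3, was at 5.34, 4.88 and 5.46 in polysomal and 3.92, 4.37 and 4.04 in total RNA. All 10 had a positive difference, with a median of 0.65. Of 35 SET domain histone methyltransferases 4 were higher (11.4%), among them SDG2, SDG29 and EFS, and 1 was lower (2.86%). Their median was 0.30. HUB1, which ubiquitinates histone H2B and was found through reduced seed dormancy of its mutant, rose by 0.77 (SE 0.16, adjusted p = 0.0451).

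The largest subunits of nuclear RNA polymerases numbered 5 on the array, and 3 rose (60%, against 2.59% of all rows). NRPC1 of polymerase III was at 4.33, 4.03 and 4.43 in polysomal and 3.07, 2.19 and 3.18 in total RNA. NRPA1 of polymerase I rose by 0.95 (SE 0.21), and NRPD1B of polymerase V, which works in RNA-directed DNA methylation, by 0.77 (SE 0.16). All 3 of the related kinases TOR (growth control by nutrients), ATM and ATR (response to DNA damage) rose, by 0.76, 0.91 and 1.13. TOR was at 7.67, 7.50 and 7.63 in polysomal and 6.74, 6.97 and 6.79 in total RNA. Of 11 callose synthases, 3 were higher (27.3%: GSL03, GSL1 and GSL8, by 1.09, 1.08 and 0.97). Of 7 HECT-type ubiquitin ligases 1 was higher, UPL7 (14.3%, resting on 1 gene), and the list's median was 0.66. Of 123 ABC transporters 7 were higher (5.69%, against 2.59% of all rows) and none lower, with a median of 0.07. All 7 were among the 53 above the median level, where 5.03% of all rows were higher. The median of the 53 was 0.39, against 0.17 for all rows there. The calls of the polymerase subunits and kinases named here, GSL03, GSL1, GSL8 and UPL7 were lost under at least 1 of the other scalings. So were those of CHR5, HAC1, HAC5, IBM1, REF6, PKDM7D, EFS, SDG29, HUB1 and EIF4G. SYD, CHR11, HAF01 and SDG2 kept theirs under each scaling.

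**Figure D2:**
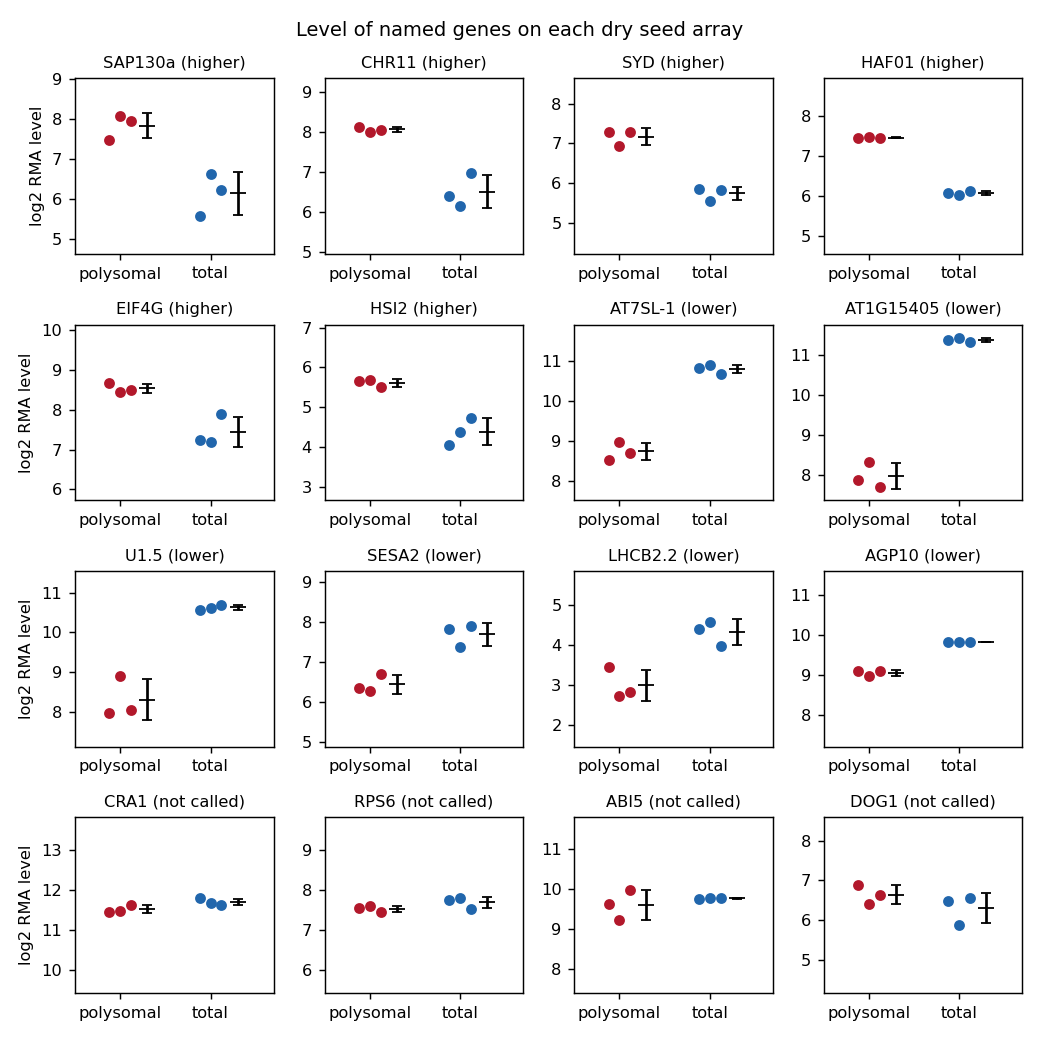
Log2 RMA levels of 16 genes on each dry seed array, with polysomal RNA in red on the left and total RNA in blue on the right of each panel. Bars give the mean and SD of 3 arrays, and every panel spans 4.4 log2 units. The groups do not overlap in the first 12 panels, while CRA1, RPS6, ABI5 and DOG1 overlap and were not called.

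Of 34 translation initiation factors 3 were higher (8.82%) and none lower, with a median of 0.15, which turned to -0.06 with 75th-percentile centring. Of the 34, 31 lay above the median level, where 5.03% of all rows were higher, and their median was 0.21, against 0.17 for all rows there. EIF4G, the scaffold that joins the cap-binding protein to the small ribosomal subunit, was at 8.67, 8.43 and 8.50 in polysomal and 7.24, 7.19 and 7.88 in total RNA, a difference of 1.10 (SE 0.22, adjusted p = 0.0413). AT1G76810, listed here among initiation factors and given no symbol in the gene tables, rose by 1.59 (SE 0.22), more than NERD, and EIF3A, the largest subunit of eIF3, by 0.84 (SE 0.16). None of 14 elongation and release factors was called, and AT1G07920, listed here as an elongation factor 1A gene, averaged 6.77 ± 0.07 in polysomal and 6.75 ± 0.03 in total RNA (SD, n = 3 each). Among 10 genes of mRNA decapping, decay and surveillance, AT2G39260 rose by 1.35 (SE 0.21). It was at 7.55, 6.87 and 7.31 in polysomal and 6.02, 5.88 and 5.79 in total RNA.

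Ribosomal protein messages passed in neither direction. None of 86 genes for the 40S and none of 127 for the 60S subunit was called, and their median differences were -0.02 and -0.07. Most of these genes lay above the median level, and there the medians were 0.01 for 79 genes of the 40S and -0.07 for 117 of the 60S list, against 0.17 for all rows. In the 60S list 31 genes had all polysomal values below and 9 all above the total RNA values, and in the 40S list 10 and 10. Over all rows 16.6% lay below and 15.5% above in this way. In the bins of level above the median, 26.5% to 52.4% of rows were apart in either direction. Single genes ranged from -0.87 to 0.76 in the 40S list and from -0.94 to 0.90 in the 60S list. RPS6 was at 7.55, 7.59 and 7.45 in polysomal and 7.75, 7.79 and 7.53 in total RNA, a difference of -0.16 (SE 0.16, adjusted p = 0.541). The 33 genes of the 26S proteasome had no call either, with a median of 0.01.

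The abundant messages of maturation lay slightly below 0 without passing, SESA2 excepted. Of 9 storage protein genes, 8 had a negative difference, 1 was lower by the test, and the median was -0.37. SESA2, a 2S albumin, was at 6.34, 6.26 and 6.70 in polysomal and 7.83, 7.36 and 7.89 in total RNA, a difference of -1.26 (SE 0.21, adjusted p = 0.0316). The neighbouring 2S albumin genes SESA1, SESA3 and SESA4 had -0.68, -0.56 and -0.37 (adjusted p = 0.0505, 0.0784 and 0.169), with values of the fractions apart in each. SESA genes are near copies of each other, and probes may not separate them. The cruciferin CRA1 was at 11.45, 11.48 and 11.64 in polysomal and 11.80, 11.68 and 11.64 in total RNA, a difference of -0.18 (adjusted p = 0.473). At such levels an array can be near its upper limit, and differences there may be compressed, which was not tested. The highest value was 11.82 to 11.89 on the polysomal and 12.05 to 12.17 on the total RNA arrays of dry seeds. Over all 18 arrays it was 12.74, on a seedling monosomal array.

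Of 32 LEA genes, 1 had a positive difference, 18 had polysomal values all below the total RNA values (16.6% of all rows did), and none was called. That share of all rows is not matched for level, as 26 of the 32 lay above the median level. In the highest of the 10 bins of level, 52.4% of rows were apart, counting both directions. The median was -0.28. GEA6, also called EM6, averaged 10.84 ± 0.17 in polysomal and 11.38 ± 0.13 in total RNA (SD, n = 3 each; adjusted p = 0.101). The 7 oil body genes had a median of -0.24, and OLEO1 had -0.34 (adjusted p = 0.214). The 24 heat shock genes had a median of -0.10 and no call. HSP101, the disaggregase of heat tolerance, averaged 10.92 ± 0.11 in polysomal and 10.78 ± 0.04 in total RNA.

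**Figure D3:**
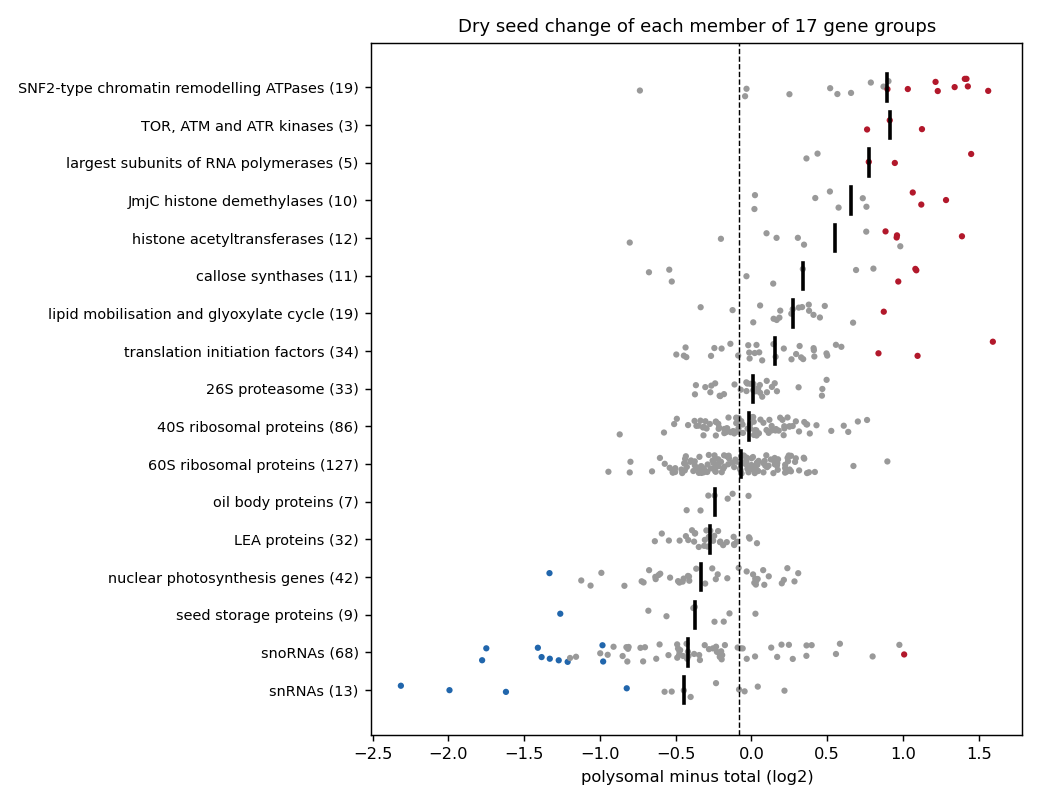
Polysomal minus total difference of each member of 17 gene groups, with the number measured in parentheses. Red points were called higher, blue points lower and grey points neither, the black bar is the group's median, and the dashed line is the median of all rows (-0.08). Medians run from 0.91 and 0.90 in the kinase and SNF2 groups, through -0.02 in the 40S group, to -0.45 in the small nuclear RNAs.

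Regulators of dormancy and germination were mostly uncalled. ABI3 and ABI5, transcription factors of abscisic acid (ABA) response, averaged 7.74 ± 0.29 and 9.60 ± 0.37 in polysomal and 8.06 ± 0.29 and 9.77 ± 0.02 in total RNA (SD, n = 3 each). DOG1, the main gene of seed dormancy, averaged 6.64 ± 0.23 in polysomal and 6.31 ± 0.37 in total RNA. Adjusted p-values of the 3 lay between 0.370 and 0.625. Of 19 regulators of maturation and dormancy 3 were higher (15.8%) and none lower: HSI2 by 1.23, HSL1 by 0.81 and HUB1 by 0.77. Their median was 0.13, or -0.09 with 75th-percentile centring. Of the 19, 13 lay above the median level, where 5.03% of all rows were higher. HSI2 and HSL1 encode paired B3 domain repressors that shut down the maturation programme in seedlings. HSI2 was at 5.67, 5.69 and 5.50 in polysomal and 4.05, 4.37 and 4.74 in total RNA.

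Among 11 genes of ABA synthesis and breakdown AAO3 was higher (9.09%), and 9 of the 11 had a positive difference. Over all rows 2.59% were higher, and above the median level, where 8 of the 11 lay, 5.03%. The median of all rows there was 0.17, and that of the 11 genes was 0.34. AAO3 encodes the oxidase of the last step of ABA synthesis and was at 4.45, 4.48 and 5.01 in polysomal and 3.67, 3.72 and 3.77 in total RNA, a difference of 0.92 (SE 0.19, adjusted p = 0.0436). CYP707A2, which breaks ABA down, averaged 5.12 ± 0.06 in polysomal and 4.75 ± 0.30 in total RNA (adjusted p = 0.25). Among 19 ABA phosphatase, kinase and bZIP genes the bZIP factor ABF1 rose by 0.83 (SE 0.18, 5.26% of the list), and none of 11 ABA receptor genes was called. PYR1, a receptor, had a difference of -0.14 (adjusted p = 0.588). Of 23 gibberellin genes GA2, which makes the precursor ent-kaurene, rose by 1.15 (SE 0.23, 4.35% of the list). Each of these shares rests on 1 gene.

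Genes for use of stored oil numbered 19, and 17 had a positive difference, with a median of 0.27. All 19 lay above the median level, where the median of all rows was 0.17. The oil lipase SDP1 and the glyoxylate cycle enzyme ICL had 0.18 and 0.19 (adjusted p = 0.474 and 0.432). ICL was already at 11.05 ± 0.04 in polysomal and 10.86 ± 0.04 in total RNA of dry seeds. None of 7 metallothioneins or 10 antioxidant genes was called, and MT1C had -0.23 (adjusted p = 0.723).

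AT1G15405, a noncoding RNA with no role in the tables used here, had the largest called fall of all rows. It was at 7.87, 8.33 and 7.70 in polysomal and 11.39, 11.43 and 11.34 in total RNA. The difference was -3.42 (SE 0.20, adjusted p = 0.000635), a 10.7-fold lower level. AT7SL-1, the RNA of the particle that takes ribosomes to the endoplasmic reticulum, was at 8.53, 8.97 and 8.70 in polysomal and 10.82, 10.89 and 10.69 in total RNA, a difference of -2.07 (SE 0.18, adjusted p = 0.0071). RefSeq lists that locus as protein-coding although it names it 7SL RNA. AT3G55485, another noncoding RNA, fell by 2.61 on the log2 scale.

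Of 13 small nuclear RNAs, which work in splicing, 4 were lower (30.8%, against 0.898% of all rows), none higher, and the median was -0.45. U1.5 was at 7.98, 8.90 and 8.06 in polysomal and 10.57, 10.62 and 10.70 in total RNA, a difference of -2.31 (SE 0.25, adjusted p = 0.0141). U6acat, U12 and U2.5, named after their values were seen, had -1.99, -1.62 and -0.82. U12 and U6acat belong to the minor spliceosome. Of 68 small nucleolar RNAs, which guide the modification of ribosomal RNA, 9 were lower (13.2%) and 1 higher (1.47%), with a median of -0.42. SNOR30 was at 5.47, 5.76 and 5.41 in polysomal and 7.38, 7.40 and 7.19 in total RNA, a difference of -1.78 (adjusted p = 0.00933). The higher one, AT1G32385, was at 2.29, 2.81 and 2.62 in polysomal and 1.45, 1.49 and 1.77 in total RNA, below the arrays' medians throughout.

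Over all rows 2.59% were higher and 0.898% lower. Of 165 rows typed as other noncoding RNA 8 were lower (4.85%) and none higher. Of 222 long noncoding RNAs 3 were higher and 3 lower (1.35% each), with a median of -0.01. Of 61 tRNA rows 3 were lower (4.92%), and of 174 miRNA precursor rows none was called. Kits of the named 3′ type prime on poly(A) tails, so levels of RNAs without a tail may not follow their amount, which was not tested.

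Apart from AT7SL-1, the largest protein-coding falls with a name were in rows with low polysomal levels. UBQ12, a ubiquitin gene, was at 1.64, 2.81 and 2.21 in polysomal and 3.59, 4.17 and 4.19 in total RNA. LRX1, a cell wall protein of root hairs, was at 1.48, 2.04 and 1.72 in polysomal and 3.25, 3.03 and 3.26 in total RNA. Their differences were -1.76 (SE 0.30) and -1.44 (SE 0.19). EXT4 (an extensin of the cell wall), TIP2 (a water channel of the vacuole membrane), AT5G23820 (a gene of the MD2-related lipid recognition family) and LBD24 (a LOB domain factor) had -1.56, -1.43, -1.42 and -1.32. Their polysomal means were 2.53, 2.62, 1.64 and 1.17, all under the arrays' medians. LHCB2.2, an antenna protein of photosystem II, was at 3.44, 2.72 and 2.82 in polysomal and 4.42, 4.59 and 3.98 in total RNA, a difference of -1.33 (SE 0.25, adjusted p = 0.0351). It was the 1 call among 42 photosynthesis genes, whose median was -0.33.

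Some falls were in well-measured rows. AGP10, an arabinogalactan protein of the cell surface, was at 9.10, 8.97 and 9.10 in polysomal and 9.83, 9.82 and 9.83 in total RNA, a difference of -0.77 (SE 0.15, adjusted p = 0.0395). HIS4, a histone H4 gene, was at 5.71, 5.08 and 5.61 in polysomal and 6.36, 6.27 and 6.64 in total RNA, a difference of -0.96 (SE 0.21). The histone H4 genes are near copies, so the row may not be that gene alone, and no other row among the 20 of core and linker histones was called. The loci below have no symbol and were chosen after their values were seen. AT2G31141 had -3.12, AT3G63052 had -2.83 and AT1G68945 had -2.21, all with adjusted p under 0.01, and AT2G31141 was at 5.67, 5.87 and 5.67 in polysomal and 8.87, 8.97 and 8.75 in total RNA.

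Families of small secreted peptides, grouped after a first look, were low on these arrays. Of 80 LCR defensin-like genes 5 were lower (6.25%) and none higher, with a median of -0.35. Over all rows 0.898% were lower, and below the median level 1.15%. Only 6 of the 80 lay above the median level, and rows below it had a median of -0.26. LCR40, LCR2 and LCR86 had -1.05, -0.93 and -0.86, with total RNA means of 3.99, 2.48 and 2.21. RALFL29 was the 1 call among 31 RALF-like genes, and no CLE gene of 30 was called. Of 18 genes of cell wall loosening (expansins and xyloglucan enzymes) none was called.

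Families matched through gene names, which cover part of each family, had few calls. None of 159 protein kinases, 215 cytochrome P450 enzymes or 10 pentatricopeptide repeat proteins was called. Of 24 F-box proteins ARABIDILLO-2 rose by 0.74. Of 440 DNA-binding factors 5 were higher and 4 lower, with HB-1 and MYB4R1 among the first (1.26 and 1.02) and bZIP48 among the second (-1.15). These are 1.14% and 0.909% of the list, against 2.59% and 0.898% of all rows.

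Organelle transcripts split. Of 92 mitochondrial rows 7 were higher (7.61%) and none lower, with a median of -0.06; 37 of the 92 are identical to another row. Of the 92, 89 lay above the median level, where 5.03% of all rows were higher and the median was 0.17. In 22 of the 92 all polysomal values lay below the total RNA values, and in 18 all lay above. Over all rows these shares were 16.6% and 15.5%. In the bins of level above the median, 26.5% to 52.4% of rows were apart in either direction. ATMG01000 was at 8.01, 8.14 and 7.82 in polysomal and 6.72, 6.91 and 6.63 in total RNA, a difference of 1.24 (SE 0.17, adjusted p = 0.0207). ATMG00960 and ATMG00590 rose by 1.23 and 1.16, and the row of ATMG00590 is identical to that of another locus. The transcribed pseudogenes AT2G07716 and AT2G07717 rose by 1.0 and 0.97. On the monosomal arrays the median level of the mitochondrial rows was 5.70 to 5.84, against 7.15 to 7.29 on the polysomal and 6.86 to 7.10 on the total RNA arrays. A median of levels is not the median of the differences, which was -0.06, and 41 of the 92 rows had a positive difference. Of 15 chloroplast rows 1 was called, ATCG00230, at 3.94, 3.96 and 3.89 in polysomal and 4.81, 5.47 and 4.75 in total RNA. Whether organelle RNA in the polysomal fraction sits on organelle ribosomes was not tested.

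The monosomal arrays show where these genes stood on single ribosomes. They are given as levels only, since both comparisons would share the total RNA arrays. EIF4G averaged 6.65 ± 0.30 in monosomal RNA, beside 8.53 in polysomal and 7.44 in total RNA. TOR averaged 5.54 ± 0.19 in monosomal RNA, beside 7.60 in polysomal and 6.84 in total RNA. The median of the TOR, ATM and ATR group was 3.52 to 3.87 on monosomal arrays, beside 5.91 to 6.04 on polysomal and 4.94 to 5.31 on total RNA arrays. CHR11 and AT2G39260 had monosomal means of 7.16 and 6.19, which lie between their polysomal means of 8.07 and 7.24 and their total RNA means of 6.5 and 5.9. SESA2 was at 7.97 ± 0.15 in monosomal RNA, beside 6.43 in polysomal and 7.69 in total RNA. AT1G15405 was at 8.72 ± 0.30 in monosomal RNA, beside 7.97 in polysomal and 11.39 in total RNA.

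Seedlings gave a second polysomal to total comparison on arrays of their own. One of these arrays stands apart: on seedling polysomal replicate 3 the median level of the storage protein genes was 6.49, against 2.96 and 2.39 on the other 2, that of the oil body genes 6.15, against 3.17 and 2.46, and that of the LEA genes 5.93, against 3.67 and 3.62. Its part in the seedling results was not tested beyond leaving it out. With all 6 seedling arrays 2805 rows (10.1%) were higher and 2982 (10.7%) lower. Of the 722 dry seed rises, 149 (20.6%) were also called higher in seedlings and 29 (4.02%) lower. These 149 were 5.31% of the seedling rises. Of the 250 dry seed falls, 60 (24.0%) were also called lower in seedlings and 22 (8.80%) higher, and the 60 were 2.01% of the seedling falls. The median seedling difference was 0.33 for the dry seed rises and -0.14 for the falls, against 0.08 for all rows. Without seedling polysomal replicate 3, 2162 rows were higher and 2415 lower in seedlings. Of the dry seed rises 145 were then also higher and 24 lower, and of the falls 57 were also lower and 13 higher.

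The difference between stages was tested for every row as dry seed minus seedling, and 1760 rows (6.32%) were positive and 1577 (5.67%) negative at an adjusted p under 0.05. Of the 722 dry seed rises 207 were positive in that test, and of the 250 falls 111 were negative. Without seedling polysomal replicate 3, 1397 rows were positive and 1132 negative, among them 150 of the rises and 93 of the falls. A row chosen for a call in dry seed enters this test with its dry seed arrays, so these counts are a description. SYD had 1.42 in dry seed and -0.17 in seedlings (difference of stages 1.59, adjusted p = 0.00452, and 1.42 with 0.0105 without that array). PHIP1 had 1.49 in dry seed and -1.14 in seedlings, where it passed the threshold too (adjusted p = 0.00862), and GSL1 had 1.08 in dry seed and -1.56 in seedlings. SAP130a had 1.69 and 1.47, with no call for the difference (adjusted p = 0.809).

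AT1G15405 had -3.42 in dry seed and -3.56 in seedlings, and the difference of 0.15 (SE 0.37) has an adjusted p of 0.821. U1.5 had -2.31 in dry seed and -2.19 in seedlings (difference -0.13, SE 0.48). AT7SL-1 had -2.07 and -1.38 (difference -0.69, SE 0.27, adjusted p = 0.102), and AT3G55485 had -2.61 and -1.73 (difference -0.88, SE 0.34, adjusted p = 0.104). None of these 4 differences passed, which does not show that the falls were of 1 size. For the mitochondrial rows, the median was -0.06 in dry seed and -1.52 in seedlings, where 61 of 92 were lower, and 56 of the 92 passed the test of the difference, or 54 without seedling polysomal replicate 3.

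**Figure D4:**
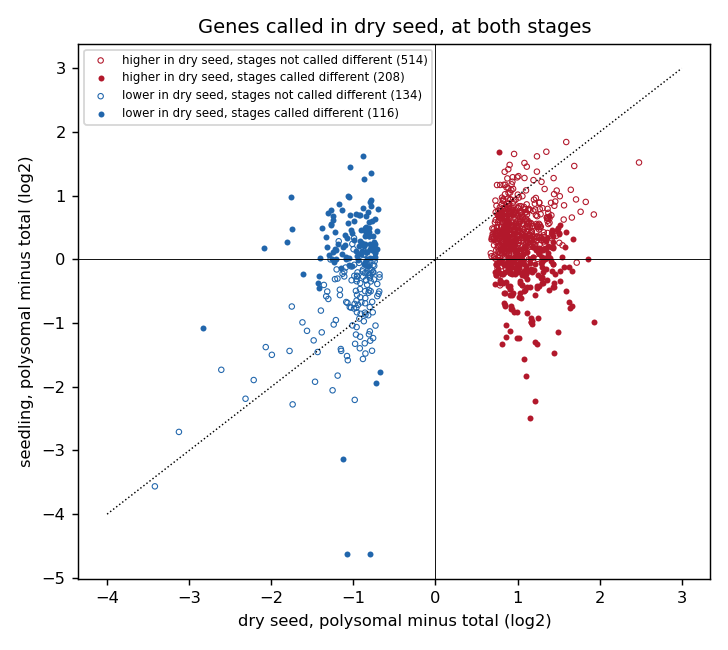
The 722 rows called higher (red) and 250 called lower (blue) in dry seed polysomal RNA, with the dry seed difference on the horizontal axis and the seedling difference on the vertical axis, both log2. Filled points passed the test of the difference between stages (208 and 116), open points did not, and the dotted line marks equal differences. Rises gather below the dotted line around small seedling values.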

How the data were processed

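RNA of dry seeds and seedlings was hybridised to 18 arrays after labelling with a 3′ one-cycle kit, per the labels' protocols. The authors deposited 1 value table, and per the submitters' processing notes it was made with RMA, which gives log2 values. Its version, probe grouping and genome build are not given in the sources used here. No probe signals, detection calls or scan batches were used here, so the number of arrays limits the precision.

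The 27827 rows were named by locus with RefSeq gene entries (assembly TAIR10.1), of which 27241 matched; 182 rows are identical to another row. The 6 dry seed arrays were fitted with limma 3.58.1 in R 4.3.3, as group means with a moderated variance and Benjamini-Hochberg adjustment over all rows. No filter was applied. The stage test used 12 arrays. The fit was tested on simulated data.

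The gene set and gene lists were chosen with earlier results of these data known. Named genes were the 8 largest called rises and falls among protein-coding genes with a name, up to 3 called members of each list, the 3 largest changes each way among other gene types, and a fixed set of known seed and ribosome genes. Where a list name was matched by pattern, false matches (such as suppressor for PPR) were removed after results were seen. Same-numbered replicates deviated together at r = -0.007, 0.078 and 0.072 in dry seed, against at most 0.022, -0.003 and 0.01 for other numbers. In seedlings the values were 0.077, 0.071 and 0.053, against at most -0.008, -0.019 and -0.002. These correlations are weak but mostly higher for the same number. Replicates were not paired in the main fit, and counts with a replicate block are given below. Alternatives were other scalings, row filters, variance settings, thresholds, array sets and left-out arrays. Protein length was not analysed here. A result for 1 gene of the lists is not reported here.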

Additional observations from a re-analysis of the deposited data

Results flagged for a closer look

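The polysomal minus total difference of 27 named genes differed between dry seed and seedlings in the limma test over all rows (adjusted p under 0.05). Values are the dry seed difference minus the seedling difference, on the log2 scale. These genes were named for calls on the dry seed arrays, which enter this test too. The sign of the values, for rises and for falls, is therefore largely set by that choice and is a description. Genes that were higher in dry seed polysomal RNA had positive values. Among chromatin, transcription and turnover genes these were 1.59 for SYD, 1.23 for CHR5, 0.70 for HAF01, 1.02 for SDG2, 1.29 for REF6, 1.38 for NERD, 1.89 for NRPC1 and 1.14 for UPL7. The translation-linked loci AT1G76810 and AT2G39260 had 1.17 and 1.18. PHIP1 and GSL1 had 2.63 and 2.64, with a fall in seedling polysomal RNA past the threshold in each. The mitochondrial rows ATMG00590 and ATMG00960 had 2.15 and 1.07, and the transcribed pseudogenes AT2G07716 and AT2G07717 had 2.23 and 1.20.

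Genes that were lower in dry seed polysomal RNA had negative values. They were -2.74 for UBQ12, -1.69 for LHCB2.2, -1.51 for LBD24, -1.05 for TIP2, -0.97 for AT5G23820, -1.02 for bZIP48, -1.93 for RALFL29 and -1.27 for SESA2. The defensin-like genes LCR40, LCR2 and LCR86 had -2.03, -1.62 and -1.10. All of these except SESA2 had a polysomal mean under the arrays' medians in dry seed.

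Seedling polysomal replicate 3, which held more seed messages than its group, entered these tests. SESA2 was at 2.27, 1.98 and 3.14 in seedling polysomal RNA. Without replicate 3 its difference of stages was -0.93 (limma, adjusted p = 0.0916), and 8 of the 27 genes no longer passed: SESA2, HAF01, AT1G76810, bZIP48, CHR5, NERD, UPL7 and SDG2. The other 19 still passed.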

How the results depend on the processing

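As deposited, 722 rows were higher and 250 lower in dry seed polysomal than total RNA. Leaving out 1 of the 6 arrays gave 0 to 666 higher and 3 to 424 lower. Higher and lower counts were 379 and 1488 with arrays centred on their 75th percentile, 133 and 87 with cyclic loess, 122 and 35 with a replicate block, 1929 and 908 with a trended, robust prior, 1 and 9 at adjusted p under 0.01, and 340 and 98 with at least a 2-fold change. The higher count was 1224 without the 9276 lowest rows and 1766 without the rows below the median level, a setting chosen after seeing the data. The lower count was 446 with array weights and 418 with all 18 arrays. Median centring, all 9 dry seed arrays and 1 row per identical set kept both counts within 1.5 times. The stage test gave 3337 rows, 1913 to 3601 with 1 array left out, 2529 without seedling polysomal replicate 3, and 2947 with the replicate block.

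Of 70 called named genes, 69 lost their call without at least 1 array, AT1G15405 being the exception, 41 lost it under at least 1 other scaling and 44 with the replicate block. None of the 70 changed sign under the 19 settings tried, which was largely set by their choice. They were named for being called, and no called difference was under 0.67 in size. Several settings also leave the difference itself unchanged and alter only its test. In the genes not called, the sign turned in MT1C (-0.60 to 0.05 with 1 array left out, and 0.02 without total RNA replicate 2), ABI5 (-0.35 to 0.02 with 1 array left out), AT1G07920 (-0.20 with 75th-percentile centring, -0.14 with cyclic loess, -0.02 to 0.04 with 1 array left out), HSP101 (-0.07), ICL (-0.03) and SDP1 (-0.03) with 75th-percentile centring, and CRA1 (0.07) with cyclic loess. Median differences of SNF2 ATPases were 0.68 to 0.94 and of small nuclear RNAs -0.66 to -0.31 under the 4 scalings, while those of 15 of the 51 lists changed sign in at least 1, among them the 40S, proteasome, initiation factor and dormancy regulator lists. Protein length bins were not run. The cause of these changes was not tested.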
